A study of Homo sapiens with 34 samples.

Results

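The long arm of chromosome 17 (17q) was described here through the ChIP-seq peaks that lie on it in KELLY, a human neuroblastoma cell line with amplified MYCN. All peaks of 30 deposited lists on chromosome 17 with a start past 25.1 Mb (hg38) were taken, which gave 78115 of the 2240368 peaks of the series, or 3.49%. The arm had 58.0 Mb of sequenced bases and 840 protein-coding genes, and it was set against the short arm (17p, 24.9 Mb, 346 genes and 29936 peaks) and the other autosomes (2673 Mb, 17925 genes and 2023668 peaks).

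The cells could be induced by doxycycline to make a short hairpin RNA directed at RUNX1T1, a transcriptional co-repressor, and were kept for 72 h with DMSO or with Doxycycline. Chromatin was precipitated for 5 histone marks, H3K4me1, H3K4me2, H3K4me3, H3K27ac and H3K27me3, with 3 libraries of each mark under each treatment, so that every mark had 6 libraries. The 4 input libraries, 2 of each treatment, entered through the peak calls only, and the inputs named for replicates 1 and 3 of a treatment had identical read numbers in the file headers and were taken to be the same library. The study used 1 line, and no cells without the hairpin were among the samples, so the hairpin and doxycycline itself cannot be told apart. The labels do not say whether replicates were separate cultures, and the p-values below measure only the spread between these libraries.

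Neuroblastoma arises from cells of the sympathetic nervous system, and gain of distal 17q, often through an unbalanced translocation that leaves 17p behind, is among its most common chromosome changes. An extra copy of a segment raises the amount of its DNA in the chromatin that is sequenced, both in an input library and in a ChIP library. H3K4me3 marks promoters, H3K4me1 marks enhancers and the flanks of promoters, H3K4me2 marks both, H3K27ac marks those that are active, and H3K27me3 is laid down by Polycomb repressive complex 2 over silenced developmental genes.

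The identity of the line was checked at genes of the adrenergic neuroblastoma state that lie on other chromosomes, PHOX2A, HAND2, GATA3 and ISL1. At each, H3K4me3 and H3K27ac lay at the promoter (up to 1 kb from a start site) in 6 of 6 libraries, and H3K27me3 in none. MYOD1, GATA1 and ALB, which mark muscle, red blood cells and liver, had H3K27ac in no library. Peaks were called at 71.884 to 81.077 M reads in DMSO and at 57.003 to 63.438 M in doxycycline, which do not overlap, and depth and treatment cannot be told apart. For H3K27me3 the libraries fell apart by peak length: the median 17q peak was 2520 to 2602 bp long in DMSO replicate 1 and doxycycline replicates 1 and 2, and 455 to 652 bp in DMSO replicates 2 and 3 and doxycycline replicate 3.

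The sequences below carry the pattern of the point-like marks, H3K4me2 and H3K4me3, whose lists give the base with the most fragments (the summit). Each is the 150-base window around the highest summit of a region, read from the hg38 genome on the plus strand, with every CpG in capitals. The first pair comes from regions called in all 6 libraries, in an intron of HLF (H3K4me2) and across an exon of METTL2A (H3K4me3). Both were among the 3 highest of their mark by mean percentile of fold enrichment within lists (ChIP over input, defined below). The next 3 were called in all 3 doxycycline libraries and no DMSO library, in a coding exon of HOXB3 (H3K4me2), an intron of SDK2 (H3K4me2) and an exon of the non-coding gene LHX1-DT (H3K4me3, in sequence that is also matched by alternate sequences of the assembly).
HLF, chr17:55265626-55265775: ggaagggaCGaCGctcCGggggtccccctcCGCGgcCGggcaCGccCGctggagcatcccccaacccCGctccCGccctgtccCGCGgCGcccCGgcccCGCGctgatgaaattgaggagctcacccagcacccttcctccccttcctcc
METTL2A, chr17:62424111-62424260: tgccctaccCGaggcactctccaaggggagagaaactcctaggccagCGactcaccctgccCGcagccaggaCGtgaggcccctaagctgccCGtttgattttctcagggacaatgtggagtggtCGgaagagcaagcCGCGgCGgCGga
HOXB3, chr17:48550982-48551131: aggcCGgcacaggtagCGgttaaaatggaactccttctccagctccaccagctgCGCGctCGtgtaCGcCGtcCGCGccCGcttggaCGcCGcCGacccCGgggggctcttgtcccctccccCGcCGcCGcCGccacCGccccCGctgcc
SDK2, chr17:73482527-73482676: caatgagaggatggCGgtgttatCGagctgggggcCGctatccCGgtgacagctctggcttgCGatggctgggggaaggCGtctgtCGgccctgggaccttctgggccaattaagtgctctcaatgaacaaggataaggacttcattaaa
LHX1-DT, chr17:36932505-36932654: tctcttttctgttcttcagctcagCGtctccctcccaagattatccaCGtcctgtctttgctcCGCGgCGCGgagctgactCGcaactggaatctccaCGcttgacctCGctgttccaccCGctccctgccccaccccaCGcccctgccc
The windows of HLF and METTL2A held 16 and 10 CpGs. The window of HOXB3 held 20, that of LHX1-DT 11 and that of SDK2 7. They were chosen by the rank of their q values, and over all regions called in 3 doxycycline libraries and no DMSO library the window held a median of 7 CpGs for H3K4me2 (9 regions, 1 to 20) and 4 for H3K4me3 (7 regions, 1 to 11). The reverse class held a median of 2 for H3K4me2 (10 regions, 0 to 9) and 2.5 for H3K4me3 (6 regions, 1 to 8), so the ranges overlapped in both marks. Over the arm, the window at the summit held a median of 12 CpGs in the 866 H3K4me3 regions called in all 6 libraries and 3 in the 463 called in 1 to 5 libraries. For H3K4me2 these medians were 6 over 1488 regions and 3 over 2716. The regions called every time were thus the richer in CpG, and the same order was found on 17p, with medians of 13 and 5 for H3K4me3 and 7 and 3 for H3K4me2.

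The first comparison asked whether the arm held more peaks per length than 17p and the other autosomes. The 4 marks of active or accessible chromatin were denser on 17q than on both, in 6 of 6 libraries each, and H3K27me3 was denser on 17p. H3K4me3, the promoter mark, had 20.2, 21.0 and 18.6 peaks per Mb on 17q in DMSO and 20.5, 19.9 and 18.8 in doxycycline. The other autosomes had 9.0, 8.94 and 8.22 in DMSO and 9.04, 8.64 and 8.03 in doxycycline, so no library of the arm came near their range. The mean difference was 1.2 ± 0.026 on the log2 scale (SD, n = 6 libraries), a 2.29-fold density (exact sign-flip permutation test over the 6 libraries, two-sided, p = 0.0312, the smallest this design can give; Benjamini-Hochberg adjusted p = 0.0347 over 5 marks and 2 comparisons).

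**Figure D1:**
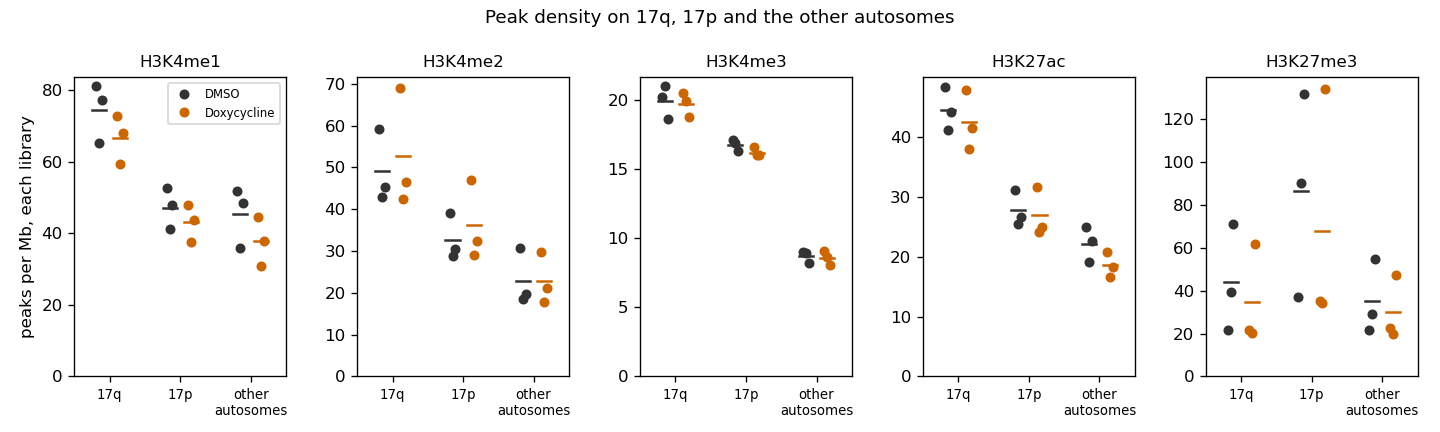
Peaks per Mb (vertical axes, from 0) on 17q, 17p and the other autosomes, 1 panel per mark; points are libraries and bars are means of the 3 DMSO (dark) or 3 doxycycline (orange) libraries. The 4 active marks lie higher on 17q than on both comparators, and H3K27me3 spreads from 20.4 to 71.0 peaks per Mb on 17q and lies higher on 17p.

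H3K27ac, the mark of active promoters and enhancers, had 48.4, 41.1 and 44.2 peaks per Mb in DMSO and 47.8, 38.0 and 41.5 in doxycycline, 2.15-fold the density of the other autosomes. H3K4me2 had 42.5 to 69.0 and was 2.24-fold denser. H3K4me1 had 59.5 to 81.2 and was 1.72-fold denser, the smallest excess of the 4. All 3 had the same p and adjusted p as H3K4me3. Against 17p the excess was 1.57-fold for H3K4me1, 1.48-fold for H3K4me2, 1.2-fold for H3K4me3 and 1.59-fold for H3K27ac (exact sign-flip permutation test, adjusted p = 0.0347 each, 6 of 6 libraries).

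The H3K27me3 density of 17q was 21.8, 39.5 and 71.0 peaks per Mb in DMSO and 21.8, 20.4 and 61.7 in doxycycline. Against the other autosomes its mean log2 difference was 0.20 ± 0.22 (exact sign-flip permutation test, p = 0.125, adjusted p = 0.125). With peaks of -log10 q 3 or more it was 0.63, and with lists cut to equal length 0.27, higher in 6 of 6 libraries in both (adjusted p = 0.0312, same exact permutation test). The 3 libraries with long peaks gave ratios of 1.02, 0.958 and 1.04, and the 3 with short peaks gave 1.35, 1.29 and 1.31. By sequence covered, H3K27me3 peaks took 15.2, 7.49 and 7.35% of 17q in DMSO and 16.4, 14.5 and 7.86% in doxycycline. The other autosomes had 11.2, 4.23 and 4.38% in DMSO and 12.7, 10.6 and 4.52% in doxycycline, lower in 6 of 6 libraries. Coverage of 17p was 13.5 to 35.5%, and coverage was not tested. 17p held 34.4 to 134 H3K27me3 peaks per Mb, and the arm had 0.536 times that density, lower in 6 of 6 libraries, with ratios of 0.589, 0.624 and 0.595 in the libraries with long peaks (exact sign-flip permutation test over all 6, adjusted p = 0.0347).

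Gene density was set beside peak density, and its part was not tested. 17q held 14.5 protein-coding genes per Mb, 17p 13.9 and the other autosomes 6.7. Counted per gene, H3K4me3 peaks of 17q exceeded those of the other autosomes by 0.087 on the log2 scale (exact sign-flip permutation test, adjusted p = 0.0391) and H3K4me2 by 0.053 (adjusted p = 0.3472). H3K27me3 then gave -0.91 (adjusted p = 0.0391, exact sign-flip permutation test). H3K27ac gave -0.0086 (adjusted p = 0.9688) and H3K4me1 -0.331 (adjusted p = 0.0391), both from the exact sign-flip permutation test. Per gene the excess over 17p was 0.21 (H3K4me3) to 0.61 (H3K27ac) for the 4 active marks, in 6 of 6 libraries.

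Density varied widely along the arm. The 1 Mb from 81 Mb held the most H3K4me3 peaks, a mean of 56.5 per library (range 50 to 60), and 36 genes. The 1 Mb from 53 Mb, with 1 gene, held 0.667 per library, and the 1 Mb from 70 Mb, with 2 genes, held 1 in every library. H3K27ac had 75 to 128 in a library at 82 Mb and 0 to 14 at 70 Mb. H3K27me3 ran otherwise: its densest bins were at 56 Mb with 150 peaks per library, 65 Mb with 141 and 69 Mb with 112, where 4 to 6 genes lie, and at 78 Mb it had 3.5. The first stretch, from the boundary to 27 Mb, is close to the centromere and held 11 H3K4me1, 1 H3K4me2, 2 H3K27ac and 348 H3K27me3 peaks summed over the 6 lists of each mark, and no H3K4me3 peak.

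The next comparison asked whether the peaks of 17q were taller. The caller gives 2 values for each peak: the pileup, which is the number of overlapping fragments after scaling, and the fold enrichment, which divides the pileup plus 1 by the local input level plus 1. From these the input level behind each peak was recovered, as pileup plus 1 divided by fold enrichment, minus 1, and is called the implied input level. It is the level that the caller set for a peak and was not counted from input reads. Any pair of these values fixes the other. For broad lists the values are means over a peak and the implied level is approximate.

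Pileup was higher on 17q than on the other autosomes pooled in every mark, and fold enrichment was not. For H3K4me1, the median pileup of 17q peaks was 31.6, 29.4 and 27.1 fragments in DMSO and 29.7, 26.3 and 25.7 in doxycycline. The other autosomes had 22.9, 22.1 and 19.5 in DMSO and 21.8, 20.3 and 19.5 in doxycycline, and the ranges did not overlap. The median pileup of the arm was 1.35-fold that of the other autosomes for H3K4me1, 1.31-fold for H3K4me2, 1.26-fold for H3K4me3, 1.22-fold for H3K27ac and 1.13-fold for H3K27me3, each in 6 of 6 libraries (exact sign-flip permutation test, adjusted p = 0.0312). Against 17p it was 1.2-, 1.05-, 1.11-, 1.17- and 1.08-fold in the same order of marks, also in 6 of 6 libraries (same exact permutation test, adjusted p = 0.0312 each). The H3K4me3 value against 17p turned to -0.17 on the log2 scale among peaks over 2.5 kb from a start site, and to -0.0284 (adjusted p = 0.6562, exact permutation test) with 17q from 30 Mb and 17p to 20 Mb.

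The implied input level rose by more than the pileup. In the H3K4me3 lists it was 16.6, 12.8 and 17.9 on 17q against 11.3, 8.93 and 12.0 on the other autosomes in DMSO. In doxycycline it was 12.7, 10.4 and 11.9 against 8.98, 7.34 and 8.52. Every library thus gave the arm the higher input, by 1.39- to 1.49-fold. The mean ratio against the other autosomes was 1.48 for H3K4me1, 1.42 for H3K4me2, 1.44 for H3K4me3, 1.41 for H3K27ac and 1.19 for H3K27me3 (exact sign-flip permutation test, adjusted p = 0.0312 each, 6 of 6 libraries). Against 17p it was 1.33, 1.34, 1.37, 1.35 and 1.2 (same exact permutation test, adjusted p = 0.0312 each). In the H3K27me3 libraries with long peaks the ratio to the other autosomes was 1.19, 1.2 and 1.2, and in those with short peaks 1.23, 1.16 and 1.16. These ratios are not independent measurements, since all marks share the 4 inputs and the libraries of a mark share them too. With libraries of the same input averaged, an alternative chosen after seeing the data, the ratio to the other autosomes was 1.47, 1.42, 1.43, 1.41 and 1.2, higher for 4 of 4 inputs in each mark, and the exact permutation test cannot then go below p = 0.125.

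Fold enrichment carried no such excess. Against the other autosomes it was 1.01-fold for H3K4me1 (adjusted p = 0.3472), 0.989-fold for H3K4me2 (adjusted p = 0.3472) and 0.995-fold for H3K27me3 (adjusted p = 0.5312), all from the exact sign-flip permutation test. Fold enrichment rests on the same 4 inputs, and was lower on 17q for H3K4me3, at 0.919-fold, and H3K27ac, at 0.935-fold, in 6 of 6 libraries (same exact permutation test, adjusted p = 0.0446 each). Among peaks over 2.5 kb from a start site the H3K4me3 difference from the other autosomes was 0.0107 on the log2 scale (exact permutation test, adjusted p = 0.4688). Against 17p fold enrichment was lower in every mark and library, at 0.973-, 0.854-, 0.904-, 0.906- and 0.948-fold (same exact permutation test, adjusted p = 0.0446 each). Among regions called in all 6 libraries, an alternative chosen after seeing the data, the lower values kept their sign with adjusted p = 0.0521 (exact permutation test), other than the H3K4me3 value against 17p, which was 0.0016 on the log2 scale.

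**Figure D2:**
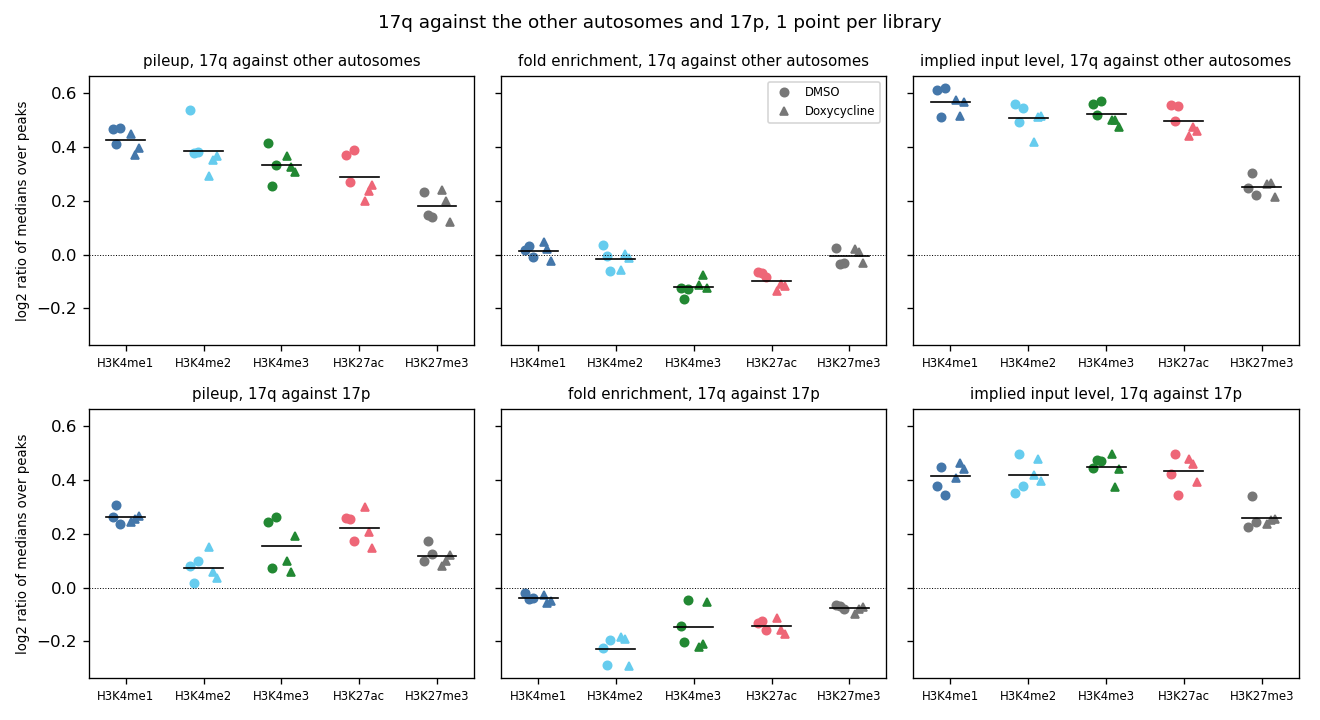
Log2 ratio of the median over 17q peaks to that over the other autosomes (top) or 17p (bottom) for pileup, fold enrichment and implied input level; points are DMSO (circles) and doxycycline (triangles) libraries, and bars are means of 6. All points for pileup and implied input level lie above 0, and those for fold enrichment lie around or below it.

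The 21 other autosomes, 17p and 17q were then ordered by implied input level relative to all autosomes. 17q came first of the 23 for H3K4me2 (0.48 ± 0.031 log2), H3K4me3 (0.49 ± 0.042) and H3K27ac (0.48 ± 0.048), and second for H3K4me1 (0.55 ± 0.044) and H3K27me3 (0.25 ± 0.033). Chromosome 22 was its neighbour in each order, at 0.45 ± 0.058, 0.44 ± 0.037, 0.46 ± 0.099, 0.57 ± 0.093 and 0.41 ± 0.030. For H3K4me1, H3K4me2 and H3K27ac the means of 17q and chromosome 22 differed by less than the SD of chromosome 22. Chromosome 7 came next in the 4 active marks, at 0.26 to 0.31. GC content did not follow this order throughout: it was 45.2% on 17q and 47.0% on chromosome 22, but 40.7% on chromosome 7. Chromosome 19 with 47.9% ranked 5 to 9 over the marks and 17p with 45.5% ranked 7 to 9. By pileup 17q came second of the 23 in every mark. Ahead of it was chromosome 22 for H3K4me1 and H3K27me3, 19 for H3K4me2 and H3K27ac, and 3 for H3K4me3. By fold enrichment 17q ranked 9 for H3K4me1, 14 for H3K4me2, 19 for H3K4me3, 21 for H3K27ac and 18 for H3K27me3. High pileup and low fold enrichment were thus not particular to the arm.

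Along the arm the implied input level was not even. In the 24 lists of the 4 active marks, the 1 Mb bins from 27 to 34 Mb had 0.955 to 1.11 times the median of the other autosomes, and those at 39 and 40 Mb had 1.11 and 1.12. The bins at 41, 42, 43 and 44 Mb had 1.68, 1.68, 1.82 and 1.68. The step lay in or beside the stretch from 40850735 to 41432927, which holds keratin and keratin-associated protein genes and is mostly matched by alternate sequences of chromosome 17. Past it, all bins lay at 1.27 or more up to the end of the arm, other than those at 46, 52 to 54 and 69 to 71 Mb. The highest were 81 Mb with 1.83 and 43 Mb with 1.82.

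**Figure D3:**
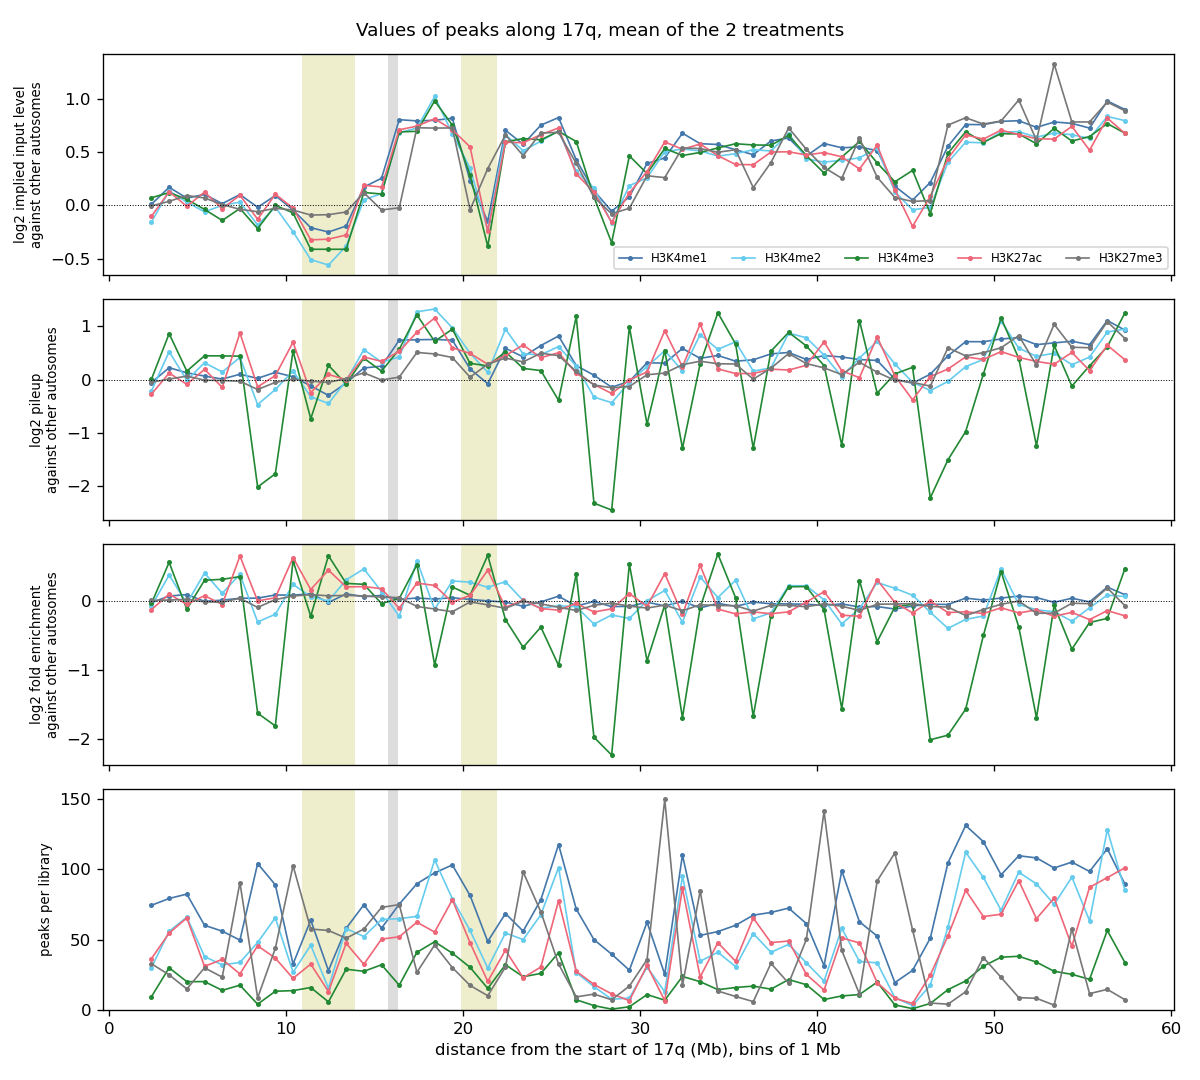
Median log2 value of 17q peaks against the other autosomes per 1 Mb bin for implied input level, pileup and fold enrichment, and peaks per library (bottom), against the distance from the start of the arm in Mb; lines are marks and values are means of the 2 treatments. Yellow bands are bins over 50% matched by alternate sequences and the grey band is the stretch between the proximal and distal segments. The implied input level steps up at the grey band, and fold enrichment does not rise there.

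The exceptions coincided with measured features of the sequence, and the part of these features in the level was not tested. At 46 Mb, where the level was 0.874, 90.4% of the bin was matched by alternate sequences. The bins at 52, 53 and 54 Mb (1.1, 0.925 and 1.07) had a GC content of 37.2, 35.7 and 37.5%, and those at 69, 70 and 71 Mb (1.12, 1.01 and 1.11) had 38.1, 37.2 and 38.1%. Bins of like GC content were therefore compared. At 43 to 48% GC and under 10% matched, 9 bins before the step lay at 0.955 to 1.11 and 10 bins past it lay at 1.38 to 1.60, so the ranges did not overlap, and 534 bins of the other autosomes had a median of 1.02 (range 0.684 to 3.13). At 36 to 40% GC the 4 distal bins had a median of 1.11, against 0.873 in 940 bins of the other autosomes. The lowest bin of the other autosomes had the same level, 0.684, at 40 to 43, 43 to 48 and 48 to 55% GC. Whether the level set by the caller has a lower limit, which would compress low values, was not tested.

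The arm was then split at that stretch, after the values had been seen, and the split is a description with no test. The proximal segment, from 25100001 to 40850734, held 12.6 Mb and 165 genes outside matched sequence, and the distal segment, from 41432928 to the end of the chromosome at 83257441, held 39.3 Mb and 554 genes. The implied input level of the proximal segment was 1.01- to 1.06-fold that of the other autosomes over the 5 marks. That of the distal segment was 1.61-fold for H3K4me1, 1.54-fold for H3K4me2 and H3K4me3, 1.52-fold for H3K27ac and 1.39-fold for H3K27me3. Every library had the higher value on the distal side.

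Pileup followed the step for 4 marks: distal over proximal, it was 1.38-fold for H3K4me1, 1.3-fold for H3K4me2, 1.25-fold for H3K27ac and 1.19-fold for H3K27me3, each in 6 of 6 libraries. For H3K4me3 it was 1.03-fold and higher in 3 of 6. Fold enrichment was lower on the distal side in 6 of 6 libraries of every mark, at 0.969-fold for H3K4me1 and 0.695-fold for H3K4me3. Distal peak density was 1.29-fold (H3K4me1) to 1.41-fold (H3K4me2 and H3K27ac) the proximal one, and 0.875-fold for H3K27me3. The number of genes per Mb was 13.1 proximally and 14.1 distally. DNA copy number was not measured apart from these inputs, and its part in the step was not tested.

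Matched sequence stood apart from the rest of the arm. The reads had been aligned to a genome with alternate sequences and filtered on mapping quality, and 6.08 Mb of 17q, or 10.5%, matched such a sequence in 11 stretches. The largest ran from 35765474 to 38841747 (3076.3 kb, the 17q12 region with LHX1) and from 45309500 to 46903770 (1594.3 kb, the 17q21.31 region with MAPT and NSF). The implied input level there was 0.681 (H3K4me3) to 0.936 (H3K27me3) times that of the other autosomes, lower in 6 of 6 libraries of each mark. H3K4me3 was found at the promoters of 45 of 114 genes in matched sequence (39.5%) and of 560 of 726 elsewhere on the arm (77.1%) in DMSO. H3K27me3 ran the other way, at 41 of 114 (36%) and 160 of 726 (22.0%). Without matched sequence every arm comparison above kept its direction and its side of the threshold.

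Promoters were then asked which marks they carried. A gene was counted when all 3 libraries of a treatment had a peak within 1 kb of a start site, over all 840 protein-coding genes of the arm and all 19970 of the annotation. In DMSO, 643 genes of 17q (76.5%) had H3K4me1 against 66.3% of all genes, 627 (74.6%) had H3K4me2 against 72.3%, and 605 (72.0%) had H3K4me3 against 72.6%. H3K27ac was at 573 (68.2%, against 65.8%) and H3K27me3 at 201 (23.9%, against 20.9%). In doxycycline these counts were 634, 633, 601, 576 and 227. H3K4me1 was thus the mark whose share stood furthest from that of all genes. The H3K27me3 counts fell to 90 and 123 when peaks were held to -log10 q of 3 or more. These were 10.7% of the arm's genes in DMSO and 14.6% in doxycycline, against 8.43 and 10.3% of all genes.

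By combination, 496 genes (59.0%) had H3K4me3 and H3K27ac without H3K27me3 in DMSO, against 59.4% of all genes. H3K4me3 together with H3K27me3, the bivalent pair of poised genes, was at 99 (11.8%, against 11.1%), and H3K27me3 without H3K4me3 at 102 (12.1%, against 9.77%). In doxycycline these were 484 (57.6%, against 58.2%), 111 (13.2%, against 12.1%) and 116 (13.8%, against 11.1%). Of the 2942 H3K4me1 regions of the arm called in all DMSO libraries, 995 (33.8%) overlapped neither H3K4me3, H3K27ac nor H3K27me3, against 42.9% over all chromosomes, and 1028 (34.9%) overlapped H3K4me3, against 27%.

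Named genes were read in lists. The list of 17q genes discussed for 17q gain in neuroblastoma held 13, among them BIRC5 (survivin, an inhibitor of apoptosis), PPM1D (a phosphatase that dampens p53), NME1 and NME2 (nucleoside diphosphate kinases), IGF2BP1 (an RNA-binding protein of fetal tissue), TOP2A (topoisomerase) and TRIM37 (a ubiquitin ligase). All 13 had H3K4me2, H3K4me3 and H3K27ac at the promoter in 6 of 6 libraries. Over all genes the shares with a mark in 6 of 6 were 61.4% for H3K4me1, 71.8% for H3K4me2, 71.9% for H3K4me3, 64.2% for H3K27ac and 20.1% for H3K27me3, and those of 17q were 72.6, 74.2, 71.2, 67.1 and 23.3%, against which the counts below are to be read. H3K27me3 was in no library for 12 of them and in 1 of 6 for BRIP1, a helicase of DNA repair. H3K4me1 was in 6 of 6 for 12, while IGF2BP1 had it in 1 DMSO library and in all 3 of doxycycline. All 10 listed genes of the ribosome and proteasome, such as RPL19 and PSMD3, had the 4 active marks in 6 of 6.

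The 20 chromatin and transcription cofactors of the arm, such as SUZ12 (a subunit of Polycomb repressive complex 2), CBX2 and CBX8 (Polycomb chromodomain proteins) and KAT2A (an acetyltransferase), all had H3K4me3 and H3K27ac in 6 of 6 libraries. H3K27me3 was in 6 of 6 at 3 of them, among which were BPTF and MED24. The developmental transcription factors were the reverse, with H3K27me3 in 6 of 6 libraries at 18 of 21 and H3K27ac in 6 of 6 at 2, SOX9 and TBX4. All 10 HOXB genes listed, which pattern the body axis, had H3K27me3 in 6 of 6 and H3K27ac in none. HOXB7 alone of the 10 had H3K4me3 in 6 of 6 as well, and HOXB13 had it in 5. TBX4, a limb and lung factor next to TBX2, had H3K27ac in 6 of 6 and no H3K27me3.

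Of 20 neural genes, all had H3K4me2 and H3K4me3 in 6 of 6 libraries, but 12 had H3K27ac and 9 had H3K27me3 in 6 of 6. MAPT (the microtubule protein tau), NSF (a fusion ATPase of vesicles) and RND2 (a small GTPase of neurons) had H3K27ac in 6 of 6 and H3K27me3 in none. SLC6A4 (the serotonin transporter), NOG (a BMP antagonist) and KCNJ2 (a potassium channel) had H3K27me3 in 6 of 6 and H3K27ac in none. NGFR, a neurotrophin receptor, had both H3K4me3 and H3K27me3 in 6 of 6, while its H3K27ac was called in 1 library of DMSO and 3 of doxycycline. CACNA1G, a calcium channel, had all 5 marks in 6 of 6.

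The tissue-restricted clusters of the arm, 47 genes for keratins, growth hormone, chemokines, CD300 receptors, Schlafens and ABCA transporters, had H3K4me3 in 6 of 6 at 2, CCL2 and ABCA5, and H3K27me3 in 6 of 6 at 20. KRT15, KRT16 and KRT19 had H3K27ac in 6 of 6 libraries but H3K4me3 in none. SLFN11, which acts in the response to DNA damage, had H3K27me3 in 6 of 6, H3K4me2 in 0 of 3 under DMSO and 3 of 3 under doxycycline, and H3K4me3 in 0 and 1. CCL2, a chemokine, had H3K4me3 in 6 of 6 and H3K27me3 in 1 of 3 under DMSO and 3 of 3 under doxycycline.

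**Figure D4:**
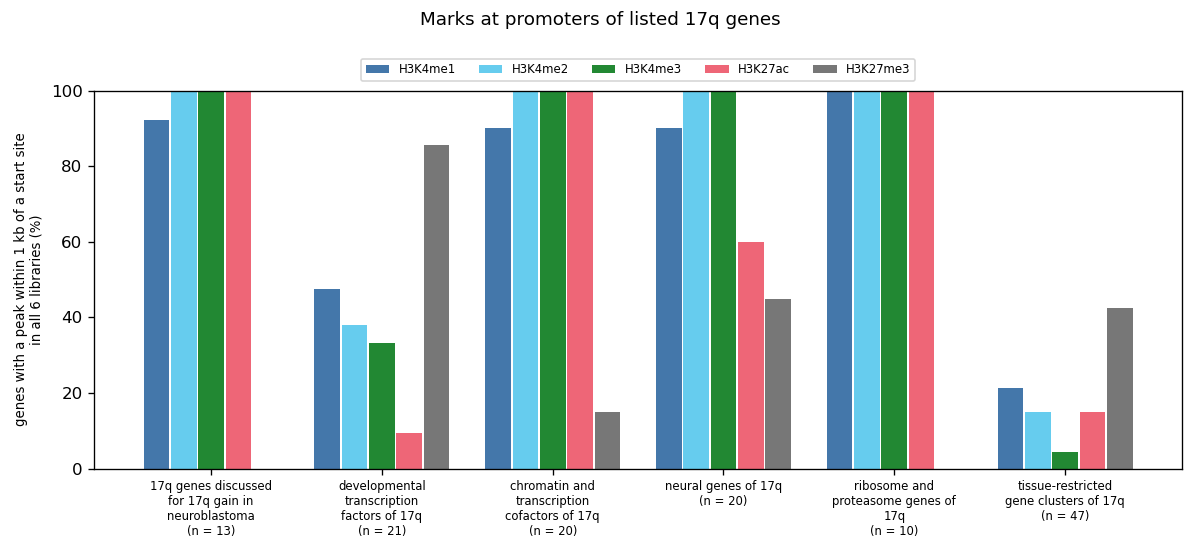
Percent of the genes of 6 lists (horizontal axis, with the number of genes) with each mark at the promoter in 6 of 6 libraries; bars are marks and start at 0. The lists of 17q-gain, cofactor and ribosome and proteasome genes stand at 100 for H3K4me3 and H3K27ac, and developmental factors lead for H3K27me3 with 18 of 21 genes.

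Single regions show the range of values. Regions were ranked by the mean percentile of their fold enrichment within lists. For H3K27ac, UBTF and IGF2BP1 shared the highest value, 99.8. UBTF, which encodes a transcription factor of ribosomal RNA genes (44216309 to 44224047), had 16.9, 14.5 and 9.44 in DMSO and 21.3, 19.7 and 11 in doxycycline. IGF2BP1 (48993807 to 49001126) had 18.8, 15.7 and 10.1 and then 20.3, 17.7 and 10.2. Next was NUFIP2, an RNA-binding protein gene in the proximal segment (29290035 to 29295045). In each of the 3 regions replicate 3 was the lowest of both treatments and the treatments overlapped.

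For H3K4me2, HLF, a PAR bZIP transcription factor gene (55263659 to 55266682, window above), had 23.6, 15.6 and 9.92 in DMSO and 36.2, 15.3 and 12.5 in doxycycline. A region between genes 6.82 kb from the start of CBX8 (79808507 to 79815023) had 20.6, 17.1 and 10.4, and then 24.4, 15.9 and 14.1. The H3K4me3 leaders were NSF (46590003 to 46592093), with 49.3, 52.6 and 29.9 in DMSO and 60.4, 51.2 and 38.9 in doxycycline, AP2B1 and METTL2A, whose start sites lie inside the region. The NSF region lies in sequence matched by alternate sequences. Over such sequence of the arm, H3K4me3 fold enrichment was 1.24-fold and implied input level 0.681-fold that of the other autosomes. None of the regions named here separates the treatments.

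The widest regions called in all 6 libraries were set by mark. Each is a union of overlapping peaks of the 6 lists, to which every library gave a peak, so a single library may cover only a part of it. For H3K27me3 the union spanned 575 kb from 48242039 to 48816899 over the HOXB cluster, with a fold enrichment of 3.51 to 4.72. Another spanned 386 kb from 79319447 to 79705242 at RBFOX3, a neuronal splicing factor gene, with 3.49 to 4.76. Those of H3K27ac spanned 89.6 kb at BAHCC1 and 81.0 kb at MSI2, an RNA-binding protein of stem and progenitor cells. H3K4me3 reached 12.8 kb at CYGB and PRCD and 10.6 kb at TBX2, a T-box factor of the adrenergic state.

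The last comparison asked what differed between doxycycline and DMSO on the arm. With 3 libraries against 3 the exact permutation test cannot go below p = 0.1, so no difference between treatments could pass the threshold. The 17q density of H3K27ac relative to the other autosomes was 0.95, 1.1 and 0.97 on the log2 scale in DMSO and 1.2, 1.19 and 1.19 in doxycycline, without overlap (difference 0.19, p = 0.1, adjusted p = 0.5 over 5 marks, exact permutation test). Not divided by the other autosomes, the 17q density differed by -0.074 and the treatments overlapped, while the other autosomes had 24.9, 19.1 and 22.6 peaks per Mb in DMSO and 20.8, 16.6 and 18.2 in doxycycline. Relative H3K27ac pileup (-0.11), fold enrichment (-0.048) and implied input level (-0.078), H3K4me2 pileup (-0.096) and H3K4me3 implied input level (-0.059) also had separate ranges, each with p = 0.1 (exact permutation test, adjusted p = 0.25 or 0.5). All other differences overlapped, with p from 0.2 to 1. Same-numbered H3K4me1 libraries deviated together, and in these pairs relative H3K4me1 density was higher in doxycycline in 3 of 3 (difference 0.11) and pileup lower in 3 of 3 (-0.044). With the pairs as a replicate block both had p = 0.25, the smallest that exact permutation of 3 pairs can give. The depth of calling differed between treatments for all of these, and its part was not tested.

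Regions of 17q called in all 3 libraries of a treatment numbered 2942 in DMSO and 2832 in doxycycline for H3K4me1. H3K4me2 had 1734 and 1758, H3K4me3 953 and 916, H3K27ac 1613 and 1464 and H3K27me3 583 and 657. Over all chromosomes they numbered 78277 and 70614, 36644 and 36916, 21470 and 20602, 39263 and 33249, and 21288 and 25859 in that order. The 17q share of these was 3.76, 4.73, 4.44, 4.11 and 2.74% in DMSO. In doxycycline it was 4.01, 4.76, 4.45, 4.4 and 2.54%. Without replicate 1, the 17q counts of H3K27me3 were 1339 and 809, in the reverse order. This leaves out 1 library with long peaks from each treatment. Rebuilding the full 17q counts for all 20 assignments of the libraries gave p from 0.4 to 1 (exact permutation test, adjusted p = 1). Regions called in all 6 libraries were 43.3% of the H3K4me1 regions of the arm (31.3% over all chromosomes), 35.4% of H3K4me2 (29.8%), 65.2% of H3K4me3 (65.7%), 31.4% of H3K27ac (28.5%) and 19.8% of H3K27me3 (13.2%).

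Regions that separate the treatments, called in 3 of 3 libraries on one side and 0 of 3 on the other, were few. Of 5523 H3K4me1 regions of 17q, 22 (0.398%) were in doxycycline only and 65 (1.18%) in DMSO only, against 0.313 and 1.45% over all chromosomes. H3K4me2 had 9 (0.214%) and 10 (0.238%) of 4204, against 0.18 and 0.291%, and H3K4me3 had 7 (0.527%) and 6 (0.451%) of 1329, against 0.45 and 0.893%. H3K27ac had 25 (0.64%) and 54 (1.38%) of 3909, against 0.6 and 2.7%. H3K27me3 had 14 (0.598%) and 1 (0.0427%) of 2343, against 0.42 and 0.0386%. On 17q the direction of these counts hung on list length in every mark but H3K27me3. With the lists of a mark cut to the length of the shortest, H3K27ac had 52 in doxycycline only and 30 in DMSO only. H3K4me1 had 54 and 47, H3K4me2 25 and 20, H3K4me3 5 and 14, and H3K27me3 5 and 0. Over all chromosomes only H3K4me2 changed direction, with doxycycline-only regions going from 38.1 to 53.5% of the separating regions. For H3K27ac this share was 63.4% on 17q at equal length, while over all chromosomes DMSO-only regions stayed the more numerous. For H3K4me3 it was 26.3% on 17q and 43.1% over all chromosomes. These differences were not tested. At full length the shares in doxycycline only lay near those of all chromosomes in each mark, while the DMSO-only shares of H3K27ac and H3K4me3 were the lower, a difference that was not tested.

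**Figure D5:**
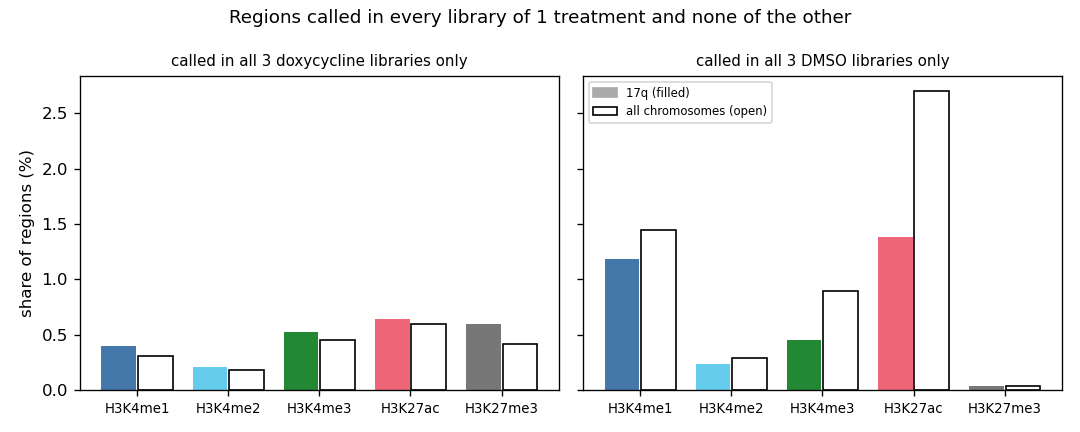
Percent of regions called in all 3 libraries of doxycycline and none of DMSO (left) or the reverse (right), for 17q (filled bars) and all chromosomes (open bars); the vertical axis starts at 0. On 17q the tallest bar is H3K27ac in DMSO only, 1.38% against 2.7% over all chromosomes.

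These regions were weak. The lowest -log10 q over their 3 libraries had a median of 1.59 (DMSO only) and 1.67 (doxycycline only) for H3K27ac, against 9.21 in regions called in all 6, and of 13.3 and 10.4 against 176 for H3K4me3. With peaks of -log10 q 3 or more, separating regions of both directions fell to 26 for H3K4me1, 50 for H3K27ac and 1 for H3K27me3. All regions of these marks fell too, to 3542, 1882 and 624. As a share of regions, H3K27ac rose to 0.797% in doxycycline only and 1.86% in DMSO only, from 0.64 and 1.38%. H3K4me1 fell to 0.226 and 0.508%, from 0.398 and 1.18%. DMSO-only regions stayed the more numerous in both marks. The H3K27me3 share in doxycycline only fell to 0.16%, from 0.598%. Of the 54 DMSO-only H3K27ac regions, 6 lay within 1 kb of a start site. Those with the highest rank by q were in NF1, the neurofibromin tumour suppressor gene (31361933 to 31362694), with fold enrichments of 2.85, 2.89 and 3.0, and in an intron of RNF43, a ubiquitin ligase of Wnt receptors (58363872 to 58365394), with 2.78, 2.89 and 2.14. Among those in doxycycline only, an H3K27ac region lay in an intron of RBFOX3 (79161446 to 79163183), with 4.0, 2.91 and 2.5, and an H3K4me1 region in another (79540333 to 79542375), with 3.25, 2.62 and 2.6.

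The H3K4me2 region of HOXB3 (48550357 to 48551846, window above) had 8.88, 4.41 and 3.83 in doxycycline. The SDK2 region (73482234 to 73483359), in a gene for a synaptic adhesion protein, had 5.7, 3.48 and 3.82. For H3K4me3, the LHX1-DT region (36932208 to 36932765) had 3.85, 5.46 and 5.9 in doxycycline and a region 10 kb from the start of NARF (82494831 to 82495430) had 4.15, 6.03 and 3.56 in DMSO. For H3K27me3, the doxycycline-only regions led by rank were in GRIN2C, a glutamate receptor subunit gene (74843103 to 74844470), with 2.65, 2.18 and 2.84, and near KCNJ2 (70147180 to 70151609), with 2.52, 2.24 and 4.23. The 1 DMSO-only region lay in an intron of WIPI1 (68454977 to 68456617), with 1.87, 2.53 and 2.62.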

How the data were processed

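ChIP-seq peak lists of 30 libraries were used. Per the labels and the file headers, the authors aligned reads to hg38 with Bowtie2, kept a mapping quality of 30 or more and called peaks against input with MACS2 2.1.1.20160309 from single-end reads, as 18 broad lists (q 0.05, linked at 0.1) and 12 narrow lists (p 1e-5). The deposited pileup is a signal that the authors' caller scaled to the smaller of ChIP and input. The deposited fold enrichment is the ratio to local input, as the authors' caller computed it. The deposited −log10 p and −log10 q values come from the authors' caller as well. Broad lists give means over a peak and narrow lists values at the summit. Input libraries entered through the calls only.

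Peaks were assigned to an arm by their start, and the arm comparisons left out X, Y and alternate sequences. Counts and shares over all chromosomes and all genes covered the autosomes and X. Density was peaks per Mb of known bases. Pileup, fold enrichment and implied input were medians per library. Log2 ratios were tested by exact two-sided sign-flip permutation over 6 libraries and exact permutation of 3 against 3, with Benjamini-Hochberg adjustment over 10 or 5 tests. Regions were unions of peaks sharing at least 1 base over the 6 lists of a mark. Genes came from GENCODE 44, and alternate sequences of chromosome 17 were matched with minimap2 2.31-r1302 (at least 50 kb). Python 3.11.15, NumPy 2.4.6 and pandas 2.3.3 were used, and the steps were tested on simulated data. Alternatives covered the q threshold, list length, arm start, chromosome 2, distance to start sites, denominators, summaries, promoter width and libraries left out. Named regions were, per mark, the 3 called in all 6 libraries with the highest mean percentile of fold enrichment, the 2 of each separating direction with the highest mean percentile of q, and the 2 widest for H3K4me3, H3K27ac and H3K27me3; those described are a subset, and some items are not reported here. The members and gene lists were chosen with earlier results of these data known.

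Same-numbered libraries deviated together from their group means over 1 Mb bins in every pair of H3K4me1 (r 0.694, 0.535 and 0.226) and H3K4me3 (0.217, 0.189 and 0.395), but not of H3K4me2, H3K27ac and H3K27me3.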

Additional observations from a re-analysis of the deposited data

Results flagged for a closer look

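Peaks were also called on alternate sequences of chromosome 17, which no comparison above used. No control list was at hand, and every library held such peaks: the fewest in a library were 299 for H3K4me1, 208 for H3K4me2, 143 for H3K4me3, 167 for H3K27ac and 216 for H3K27me3.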

How the results depend on the processing

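Of 835 alternative values, 642 planned and 110 added ones kept their direction and side of the threshold, or moved by less than the spread. With peaks of -log10 q 3 or more, H3K27me3 density against the other autosomes was 0.6252 (log2, as below) and H3K4me1 fold enrichment -0.0152; the treatment differences of H3K27ac were 0.0721 for density and -0.0313 for fold enrichment, that of H3K4me1 regions was 0.1153, separating regions numbered 26 (H3K4me1), 50 (H3K27ac) and 1 (H3K27me3), and H3K27me3 promoters 90 in DMSO and 123 in doxycycline. With lists of equal length, H3K27me3 density was 0.2705, H3K4me2 pileup against 17p 0.0833 (adjusted p = 0.0625, exact permutation test), and separating regions 45 for H3K4me2 and 5 for H3K27me3; those of H3K27ac went from 25 gained and 54 lost to 52 and 30, and of H3K4me1 from 22 and 65 to 54 and 47. With 17q from 30 Mb, H3K4me3 pileup against 17p was -0.0284. Per gene, density against the other autosomes was -0.3309 for H3K4me1, 0.053 for H3K4me2, -0.0086 for H3K27ac and -0.9093 for H3K27me3.

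Among peaks over 2.5 kb from a start site, H3K4me3 pileup against 17p was -0.1739, and fold enrichment against the other autosomes was -0.0098, -0.0378, 0.0107 and -0.0243 for H3K4me1, H3K4me2, H3K4me3 and H3K27me3. The treatment differences there were 0.0732 (density), -0.089 (pileup), -0.0479 (fold enrichment) and -0.0242 (implied input) for H3K4me3, and 0.2485, -0.0245 and -0.0454 (density, fold enrichment and implied input) for H3K27ac. In regions called in all 6 libraries, chosen after seeing the data, fold enrichment against the other autosomes was -0.1001 (H3K4me3) and -0.1178 (H3K27ac), and against 17p -0.0267, -0.1937, 0.0016, -0.2079 and -0.0742 for H3K4me1, H3K4me2, H3K4me3, H3K27ac and H3K27me3. Treatment differences there were 0.0116 (H3K4me2) and 0.011 (H3K27ac) for pileup, 0.0781, -0.0311 and 0.036 (H3K4me2, H3K4me3, H3K27ac) for fold enrichment, and 0.0126 (H3K4me3) and -0.0277 (H3K27ac) for implied input. Without sequence matched by alternate sequences, also added, the H3K4me3 implied input difference was -0.0361. The cause of these shifts was not tested.

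Not divided by the other autosomes, treatment differences in density were -0.1584 (H3K4me1), -0.0739 (H3K27ac) and -0.3842 (H3K27me3), and in pileup -0.1101 (H3K4me1), -0.2243 (H3K4me3), -0.2584 (H3K27ac) and 0.098 (H3K27me3). In fold enrichment they were 0.1285, 0.2862, 0.1759 and 0.088 for H3K4me1, H3K4me2, H3K4me3 and H3K27ac, and in implied input -0.2352, -0.3768, -0.4283, -0.3642 and 0.1205 with H3K27me3 last. With 2 of 3 libraries, fewer calls being needed, separating regions numbered 409, 142, 76, 311 and 91 for H3K4me1, H3K4me2, H3K4me3, H3K27ac and H3K27me3. Leaving out 1 replicate number gave 236 to 333, 81 to 159, 25 to 64, 215 to 222 and 51 to 117, and -0.7269 to 0.3228 for H3K27me3 regions, the lowest without replicate 1 (1339 and 809 regions). Arm comparisons then had 4 libraries, with which the exact permutation test cannot go below p = 0.125. With the replicate block, the H3K27ac density difference was 0.1863 (exact permutation test, p = 0.25, the smallest it can give), and no call changed.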
